A study of Homo sapiens with 4 samples.

Results

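The genes described here encode the nuclear subunits of the mitochondrial respiratory chain and of ATP synthase, complexes I to V. They were taken from the array by name: NDUFA, NDUFB, NDUFC, NDUFS or NDUFV followed by a number, any name beginning with UQCR or ATP5, the SDHA to SDHD genes, and the subunit names of the COX4 to COX8 series. The rule matched 83 names on 103 probes, and 81 of the 27224 gene names that had a probe free of outlier calls on all 4 arrays entered the analysis. Each gene was read from its brightest such probe, so no difference between arrays took part in the choice. By complex, 36 genes belonged to complex I, 4 to complex II, 7 to complex III, 17 to complex IV and 14 to complex V. The remaining 3, ATP5S, ATP5SL and ATP5L2, share the ATP5 prefix but are not common subunits of the enzyme. The array uses older names: 19 of the 81 now have another symbol, among them ATP5A1 (ATP5F1A), ATP5I (ATP5ME), UQCR (UQCR11) and NDUFA4 (COXFA4), which is counted here with complex IV.

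Gene expression was measured in LNCaP and PC3, which are established human prostate cancer cell lines. LNCaP is androgen responsive and was derived from a lymph node metastasis, whereas PC3 is androgen independent and was derived from a bone metastasis. For each line, 1 array held RNA of untreated cells (control) and 1 held RNA of cells given 10 µM atorvastatin (ATO), a statin that inhibits HMG-CoA reductase, for 24 h. That gave 4 groups of 1 array each, so no replicate stood behind any difference within a line, and a gene was called by the size of its ratio alone. The labels name no vehicle for the control cells. The RNA came from whole cultures, in which fewer cells of one state and less RNA per cell cannot be told apart.

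The respiratory chain passes electrons from NADH (complex I) and succinate (complex II) through complex III to oxygen at complex IV, and complex V uses the proton gradient that results to make ATP. Most of its subunits are encoded in the nucleus and imported into the mitochondrion, but a small hydrophobic core of complexes I, III, IV and V is encoded by mitochondrial DNA, so that both genomes must supply one enzyme. Complex II is the exception, since it is encoded wholly in the nucleus and also serves as an enzyme of the tricarboxylic acid cycle. Prostate cells are known for an unusual energy metabolism, in which normal epithelium secretes citrate rather than oxidising it.

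Intensities are given in scaled units. Each array was divided by its own 75th percentile and multiplied by the common value of 545.5 units, so that every fold follows from the values printed. The log2 of a ratio is called a log2 ratio, and units are compared between arrays for one probe and never between probes. Pairs of values are given as control and then ATO. A probe was measured only where it was called well above background. Where that held on 1 of the 2 arrays compared, the ratio is a bound, written as "at least". Between 48.5% and 52.9% of gene probes were well above background on an array, and no gene spot was saturated. The lines kept their identity: KLK3 and TMPRSS2 were higher in both LNCaP arrays, and CAV1, CD44 and VIM were higher in both PC3 arrays. The share of spots in an area of bright local background, more than 3 robust SDs above the array's usual level, was 0.348% on the LNCaP control array, 14.1% on the LNCaP ATO array, 8.35% on the PC3 control array and 15.3% on the PC3 ATO array.

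Of the 81 genes, 76 were well above background on all 4 arrays, and 76 had a single spot. The remaining 5 (COX7C, NDUFS5, NDUFS6, UQCRC2 and ATP5SL) had 10 spots each, and these gave the only direct estimate of measurement error among the genes. For NDUFS5, an accessory subunit of complex I, the log2 ratio of ATO to control was 0.05 ± 0.01 (SE over spots) in LNCaP and 0.04 ± 0.02 in PC3. For UQCRC2, a core protein of complex III, it was 0.05 ± 0.05 in LNCaP and −0.22 ± 0.06 in PC3. Over all repeated probes the median SD between spots lay between 0.12 and 0.14 log2 units on the 4 arrays. This spread is technical and does not include that between cultures. Where a gene had a further probe, the further probe differed from the chosen one by a median of 0.17 log2 units in LNCaP and 0.16 in PC3.

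In LNCaP cells the respiratory chain genes were almost flat after ATO. None of the 77 genes measured was 1.5-fold higher and 1, COX7B, was 1.5-fold lower, on a spot in an area, described below, where many other spots had lost signal. Over all genes measured, 4.75% of 13739 were past 1.5-fold, 2.77% higher and 1.99% lower, and within the brightness range that holds the middle of the respiratory chain genes (their 5th to 95th percentile) the share was 1.31% of 3588. The median log2 ratio of the 77 genes was −0.02, against 0.00 for all genes, with 30 genes above 0 and 47 below (68 and 9 with spike-in scaling, which set all genes at a median of 0.14). Without COX7B, COX6A2 and COX6B2, whose spots are described below, 0 of 75 were past 1.5-fold, the SD of the log2 ratios across genes was 0.12 and 97.3% lay within 0.32 log2 units of 0, against 95% of the genes of like brightness. The medians of the 5 complexes lay between −0.09 for complex II and −0.02 for complex V.

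COX6A1, a common subunit of complex IV, had the highest LNCaP ratio, at 40434 and 50019 units in LNCaP and at 53759 and 61438 in PC3. Its log2 ratio of 0.31 in LNCaP came from a spot with a bright local background on the ATO array (197 against an array median of 100.5), and the part of that background was not tested.

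COX5A, a matrix-facing subunit of complex IV, read 2182 and 1796 units in LNCaP and 967 and 1149 in PC3, so that its LNCaP log2 ratio was −0.28. NDUFA5, an accessory subunit of complex I, went from 4275 to 3206 units in LNCaP, a log2 ratio of −0.42. SDHC, a membrane anchor of complex II, was at 8447 and 7075 units (−0.26), and NDUFA7, an accessory subunit of complex I, at 16373 and 13813 units (−0.25). None of these was past 1.5-fold. The next highest LNCaP ratios after COX6A1 were smaller still. NDUFA6 read 1422 and 1615 units in LNCaP and 1314 and 1606 in PC3 (0.18 in LNCaP). ATP5J2, of the membrane part of ATP synthase, read 23279 and 25744 units and then 19261 and 19983 (0.15), and COX7A2 28009 and 30094 units and then 19786 and 23457 (0.10). NDUFB5 read 3477 and 3690 units and then 3291 and 3238 (0.09). The ratios of COX7A2 and NDUFB5 were below the median SD between repeated spots, 0.12 to 0.14 log2 units. A difference of 2 single spots has a wider spread than 1 spot.

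**Figure D1:**
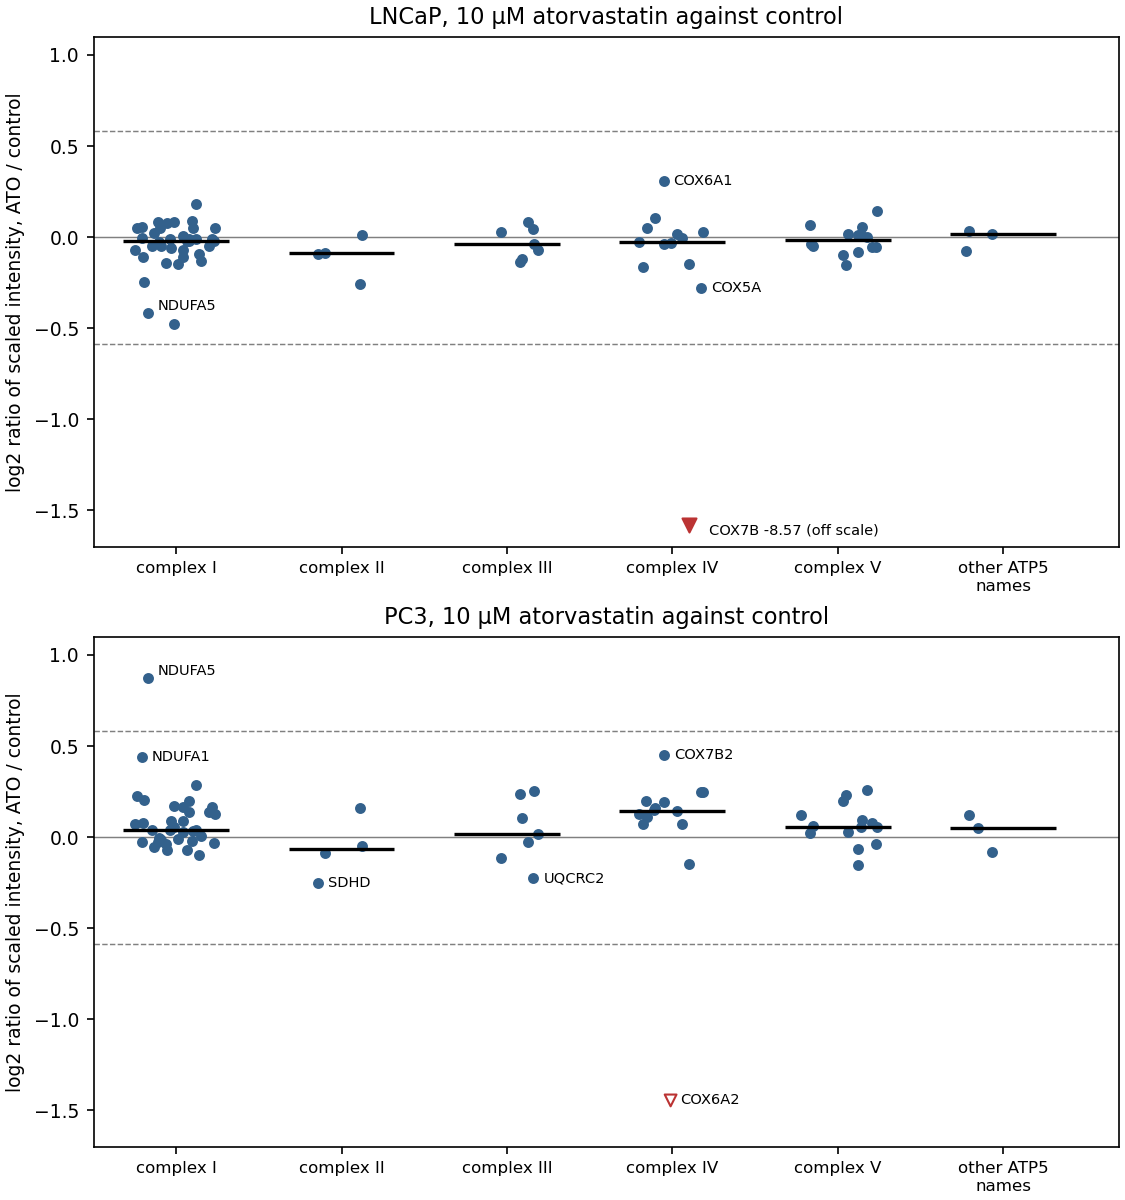
Log2 ratio of scaled intensity, ATO over control, for each gene of the respiratory chain by complex, in LNCaP (top, 77 genes) and PC3 (bottom, 78 genes), from 1 array per group. Points are genes, black bars are medians, dashed lines mark 1.5-fold and open or filled red triangles are bounds. Apart from COX7B in LNCaP (−8.57, drawn off scale) and NDUFA5 (0.88) and COX6A2 (−1.45) in PC3, all genes lie between the dashed lines.

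COX7B is a small subunit of complex IV. It read 21223 and 11.8 units in LNCaP, and 20867 and 23030 in PC3. Of the 4 arrays the LNCaP ATO array alone was low, and there the spot was not well above background. As a bound it was at least 379-fold lower in LNCaP ATO, a log2 ratio of −8.57, while in PC3 the log2 ratio was 0.14. The spot lay at row 401 and column 43 of the array. Within 10 rows and 10 columns of it, 26 of 99 other spots above 1000 units in LNCaP control (26.3%) were more than 4-fold lower on the LNCaP ATO array, compared with 30 of 9042 (0.332%) elsewhere on that array. In PC3 the same positions gave 0 of 95, and 5 of 9027 (0.0554%) elsewhere.

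ATP5G3, a subunit of the c ring of ATP synthase, and COX5B, a zinc-binding subunit of complex IV, were the 2 matched genes without a usable probe, and both sat in the same area. ATP5G3, at row 399 and column 43, went from 24842 to 3735 units in LNCaP, 6.65-fold lower, and that spot was called non-uniform. COX5B, at row 395 and column 36, read 18494 and 9216 units, 2.01-fold lower, and was called non-uniform too. In PC3 ATP5G3 read 20689 and 21533 units and COX5B 15924 and 18161, log2 ratios of 0.06 and 0.19. The COX7B spot itself carried no outlier call. If outlier calls were ignored, the number of genes past 1.5-fold in LNCaP became 3, all 3 of them in this area.

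**Figure D2:**
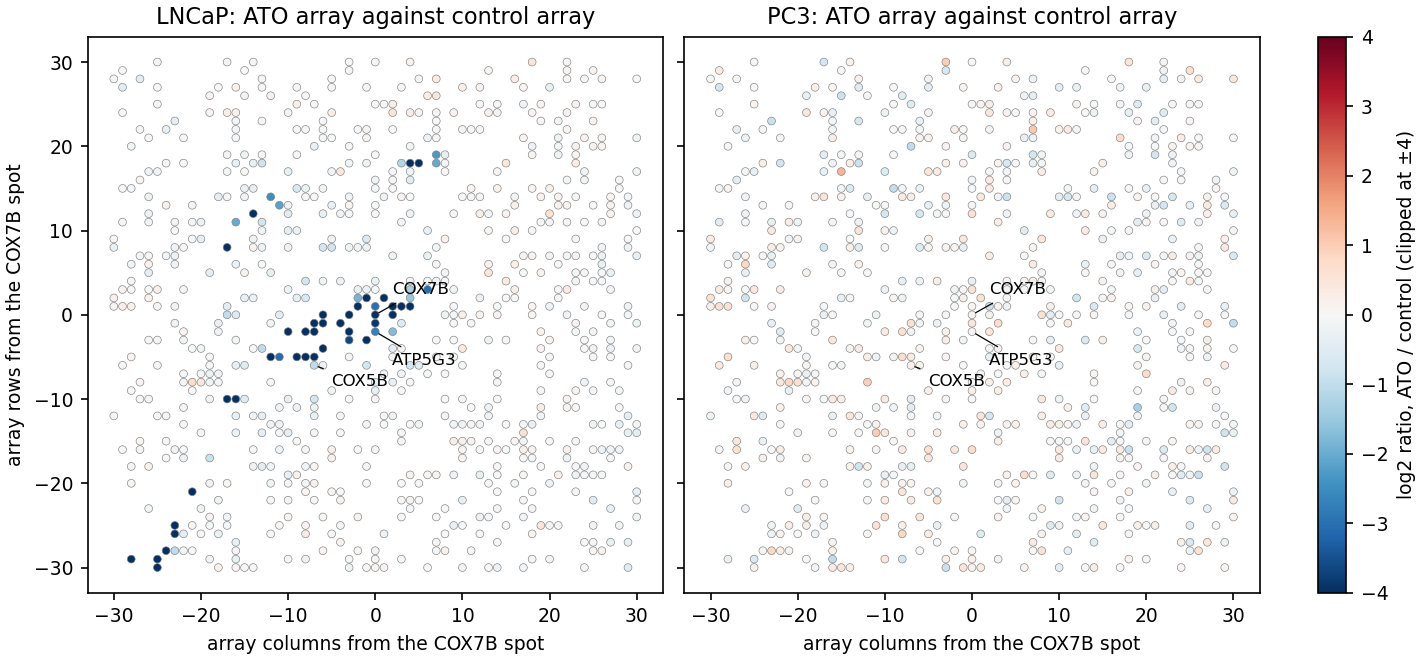
Log2 ratio of ATO over control (colour, clipped at ±4) for the 751 gene spots above 1000 units in LNCaP control that lie within 30 rows and 30 columns of the COX7B spot, in LNCaP (left) and at the same positions in PC3 (right), with axes in array columns and rows. In LNCaP 47 of these spots are more than 4-fold lower on the ATO array, and many of them form a band that runs through the COX7B and ATP5G3 spots, whereas the PC3 panel shows no such band.

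In PC3 cells, where ATO was followed by more differences over the array as a whole, the respiratory chain genes again stayed close to the control. NDUFA5 was 1.5-fold higher and COX6A2 was 1.5-fold lower, and the other 76 of the 78 genes measured were within 1.5-fold. Over all genes measured, 18.5% of 13815 were past 1.5-fold, 8.2% higher and 10.3% lower, and within the brightness range of the respiratory chain genes the share was 9.67% of 4376. Of the 78 genes, 94.9% lay within 0.32 log2 units of the control, against 59.2% of all genes. The median log2 ratio was 0.07 against −0.01 for all genes, with 53 genes above 0 and 25 below (32 and 46 with spike-in scaling). Subtracting the median of all genes, the difference lay between 0.02 and 0.07 under the 5 scalings compared.

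NDUFA5 read 1630 and 2989 units in PC3, beside 4275 and 3206 in LNCaP. It was therefore 1.83-fold higher in PC3 ATO than in PC3 control (log2 ratio 0.88). The ratio lay between 0.78 and 1.07 under every alternative that kept the spot. On the PC3 ATO array, and on no other, the spot had a bright local background (123 against an array median of 90). Without the genes on such spots no respiratory chain gene was past 1.5-fold in PC3. The part of the local background in the NDUFA5 value was not tested.

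Behind NDUFA5, the highest ratios in PC3 were those of COX7B2, described below with the isoforms, and of NDUFA1, an X-linked accessory subunit needed for complex I assembly. NDUFA1 went from 14347 to 19433 units in PC3 (log2 ratio 0.44) and from 17364 to 18036 in LNCaP (0.05). The treated PC3 array was the highest of the 4. NDUFA6 followed with 0.29, and ATP5F1, of the peripheral stalk of ATP synthase, with 0.26, from 5214 to 6241 units, while its LNCaP pair read 8041 and 7783. At the low end SDHD, a membrane anchor of complex II, went from 5006 to 4207 units in PC3 (−0.25). Its 2 further probes gave −0.41 and −0.22, so that all 3 probes were below 0. UQCRC2 went from 1750 to 1498 units in PC3 (−0.22), against 4332 and 4471 in LNCaP. ATP5A1, the alpha subunit of ATP synthase, read 18002 and 16191 units in PC3 (−0.15) and 35241 and 34287 in LNCaP. UQCRFS1, the Rieske iron-sulfur protein of complex III, read 10190 and 9412 units in PC3 (−0.11) and 15493 and 15796 in LNCaP.

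By complex, the PC3 medians ran from −0.07 for complex II to 0.14 for complex IV. All 11 common subunits of complex IV were above 0, from 0.07 for COX6B1 to 0.25 for COX5A and COX7A2, with a median of 0.15 and an SD across genes of 0.06. The highest of them, COX5A, went from 967 to 1149 units, again with a bright local background on the ATO array (136). None of the 11 was 0.32 log2 units above its control. The number above 0 was 11 with the 50th percentile, 10 with quantile normalization and with normexp, and 9 with spike-in scaling, and the median minus that of all genes was 0.15, 0.10, 0.05 and 0.15 in that order. In LNCaP 4 of the same 11 were above 0, a count that ran up to 8 under the other scalings. All 4 subunits of the peripheral stalk of ATP synthase were above 0 in PC3 too, with a median of 0.09 (2 of 4 with quantile normalization and with spike-in scaling).

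**Figure D3:**
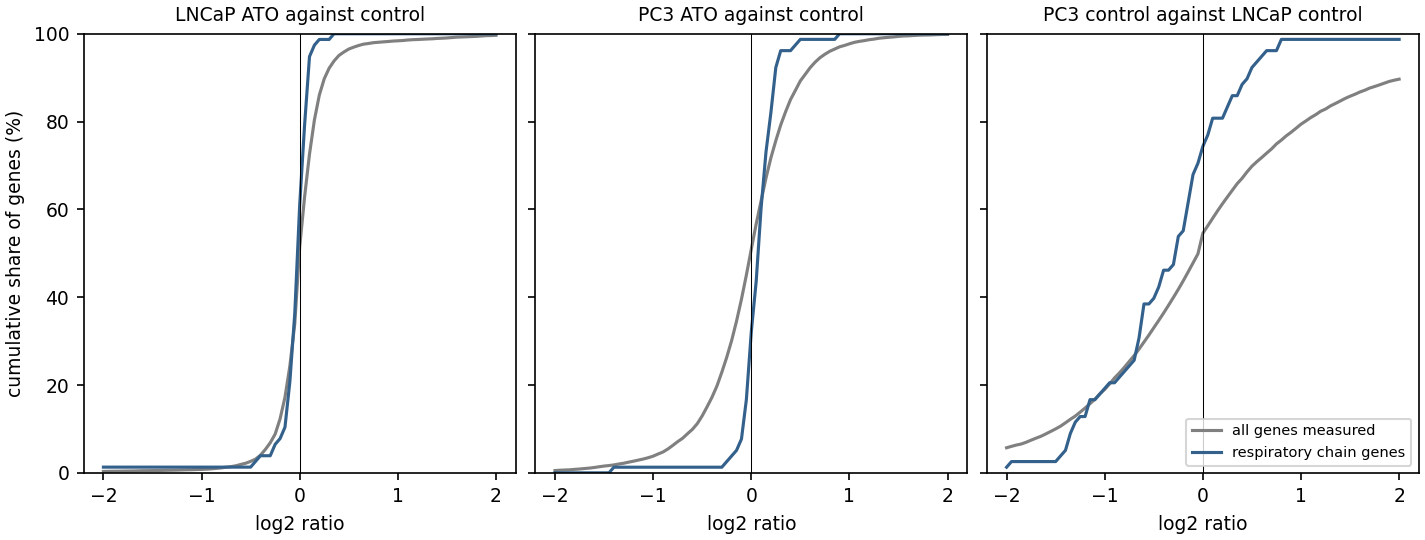
Cumulative share of genes (%) against the log2 ratio for the respiratory chain genes (blue) and all genes measured (grey) in the 3 comparisons. The blue curve is steeper than the grey one in both ATO panels, with 96.1% of respiratory chain genes within 0.32 log2 units in LNCaP (86.9% of all genes, 95% of those of like brightness) and 94.9% in PC3 (59.2% and 69.9%). In the comparison of the control arrays the blue curve lies mostly to the left of 0. There 58 of 78 genes (74.4%) are below 0, against 51.9% of all genes and 59.6% of those of like brightness.

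Taking both lines as replicates of the treatment is the only test that the 4 arrays allow. With the cell line as a block and 1 residual degree of freedom, limma called 0 of 11902 genes at an adjusted p below 0.05 (0%), with 0.762 as the lowest adjusted p of any gene. Before adjustment 532 genes (4.47%) had a p below 0.05, none of them among the 77 respiratory chain genes tested. For NDUFA5, whose ratios had opposite signs in the lines, the mean log2 ratio was 0.23 with an adjusted p of 0.864 in limma. For COX6A1, above 0 in both, it was 0.25 with an adjusted p of 0.762 in limma. Of 77 genes measured in both lines, 19 were above 0 in both, 13 were below 0 in both, 34 were above 0 in PC3 and below in LNCaP, and 11 the reverse.

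Complex II was followed gene by gene, since its 4 genes make a whole enzyme with no mitochondrial partner. SDHA, the flavoprotein, read 4163 and 3918 units in LNCaP and 5415 and 5097 in PC3, a log2 ratio of −0.09 in each line. SDHB, the iron-sulfur protein, read 6676 and 6718 units, then 11362 and 10987. Its ratios were close to 0, at 0.01 in LNCaP and −0.05 in PC3. SDHC read 8447 and 7075 units, then 7323 and 8178, with opposite signs in the lines (−0.26 and 0.16), which its 2 further probes did not show (0.03 and 0.17 in LNCaP, 0.36 and 0.23 in PC3). SDHD read 4927 and 4626 units, then 5006 and 4207, lower in both (−0.09 and −0.25). None of the 4 was past 1.5-fold with ATO. The SDHA spot had a bright local background on the LNCaP ATO and PC3 control arrays. The SDHB and SDHC spots had it on the PC3 ATO array, and its part was not tested. SDHA had 3 further probes, and these did not give one answer: log2 ratios in LNCaP were −0.50, 0.07 and −0.92, and in PC3 −0.19, −0.24 and 0.67. The probe with −0.92 and 0.67 was the dimmest of the 4, at 540 to 1021 units.

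**Figure D4:**
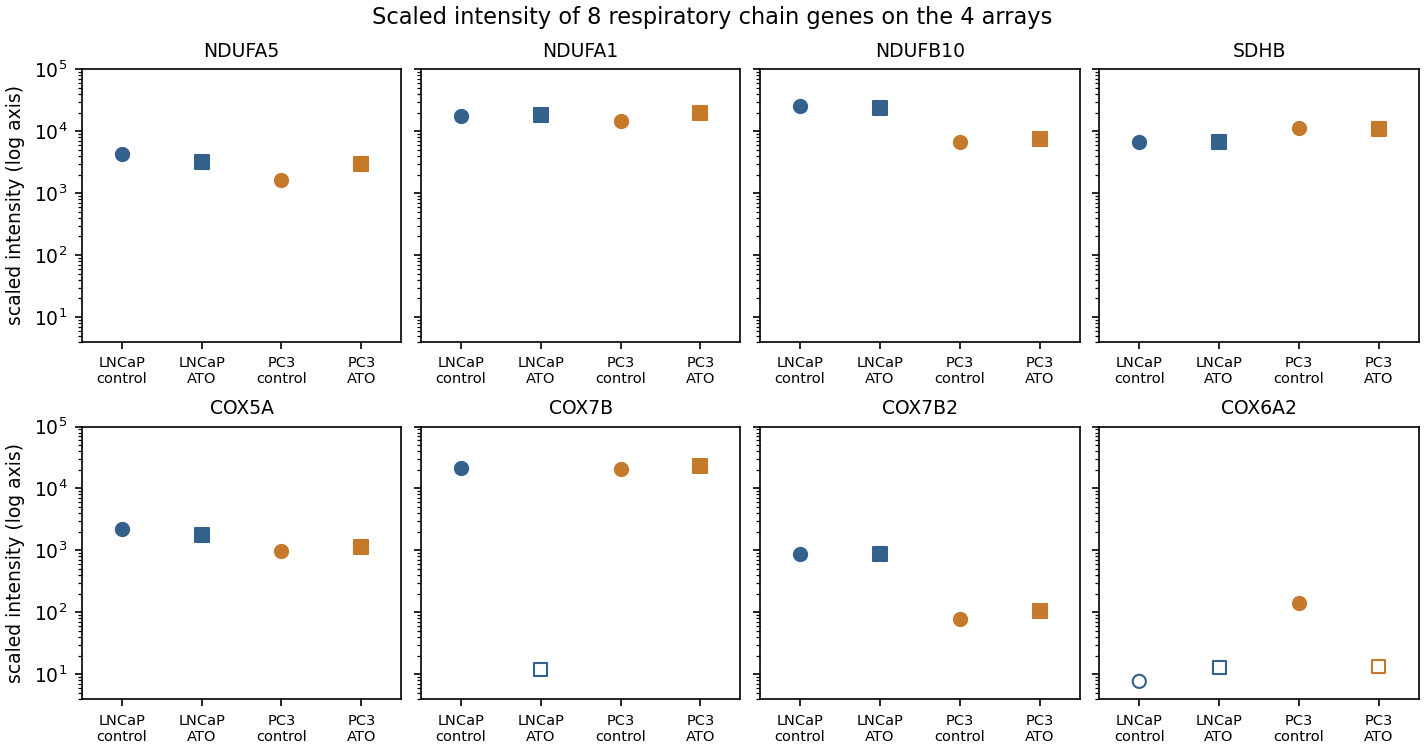
Scaled intensity (log axis) of 8 respiratory chain genes on the 4 arrays, with LNCaP in blue, PC3 in orange, circles for control and squares for ATO, and open symbols where the probe was not well above background. NDUFA5 goes from 1630 to 2989 units within PC3, NDUFB10 and COX7B2 separate the lines, and COX7B on the LNCaP ATO array and COX6A2 on the PC3 control array each stand apart as single spots.

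Between the untreated lines the respiratory chain differed more than it did with ATO. Of 78 genes measured, 15 were at least 2-fold lower in PC3 than in LNCaP and 1, COX6A2, was at least 2-fold higher, which is 20.5% in all. Without COX7B, COX6A2 and COX6B2 the SD of the log2 ratios across 75 genes was 0.70, compared with 0.12 and 0.16 for ATO in LNCaP and PC3. Over all genes, 39.6% of 15237 differed 2-fold, 20.6% higher in PC3 and 19% lower, and within the brightness range of the respiratory chain genes 25.3% of 3970 did, 329 higher and 674 lower. The median log2 ratio was −0.27, against −0.05 for all genes and −0.19 for those within the brightness range, with 20 genes above 0 and 58 below. The share below 0 was 74.4%, against 51.9% of all genes and 59.6% of those within the brightness range. The scaling set much of this shift. With spike-in scaling the median became 0.23 (all genes 0.38), with 7 genes higher and 2 lower, and with the 50th percentile −0.72 (all genes −0.49), with 1 higher and 30 lower. Against the median of all genes, the respiratory chain median was lower by 0.23 with the 75th percentile, by 0.15 with spike-in scaling and by 0.01 with quantile normalization.

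In complex I, 30 of 36 genes were below 0 (15 with spike-in scaling), against 51.9% of all genes. At least 2-fold lower in PC3 were 6 of the 36 (16.7%), against 19% of all genes. All 6 were among the 29 accessory subunits, which make up most of the complex I genes. NDUFB10, an accessory subunit of the membrane arm, read 25678 and 23828 units in LNCaP against 6614 and 7422 in PC3, so that both PC3 arrays lay far below both LNCaP arrays. It was 3.88-fold lower in PC3 control (log2 ratio −1.96) and stayed past 2-fold under each of the 11 processing alternatives. NDUFA7 read 16373 and 13813 units in LNCaP against 5988 and 6894 in PC3, and was 2.73-fold lower in PC3 control. NDUFB1 read 20317 and 20184 units against 7483 and 7685, 2.72-fold lower. These, with NDUFA5 (2.62-fold), are accessory subunits without a cofactor. NDUFB4 read 52002 and 51221 units against 21620 and 23752 (2.41-fold), and NDUFC1 22359 and 21625 units against 10702 and 10595 (2.09-fold). In each of the 6 both PC3 values were below both LNCaP values. That was likely from the start, since the genes were picked by the 2-fold difference of the control arrays. The share of all genes without overlap between the lines was not counted. The 7 core subunits, which carry the flavin and the iron-sulfur clusters, were all below 0, from −0.16 for NDUFV1 to −0.88 for NDUFV2, and none was past 2-fold. That count of 7 was 6 with quantile normalization and 3 with spike-in scaling. At the other end NDUFA10 read 2565 and 2605 units in LNCaP and 4340 and 4182 in PC3 (0.76), and NDUFB9 16433 and 17033 units in LNCaP and 25339 and 25127 in PC3 (0.62).

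Complex II was placed differently, with 3 of 4 genes above 0. SDHB was 1.70-fold higher in PC3 control (log2 ratio 0.77), the highest of the 77 genes whose ratio was no bound. SDHA had 0.38, from a PC3 control spot in a bright local background. Of its further probes, 2 gave 0.49 and 0.71 while the dimmest gave −0.74. SDHC was the gene below 0 (−0.21), but its further probes gave 0.10 and 0.60. The number of complex II genes above 0 was 1 with the 50th percentile, 3 with quantile normalization, 4 with spike-in scaling and 2 with normexp.

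In complex III, 6 of 7 genes were below 0 (5 with quantile normalization and with spike-in scaling). UQCRC2, given above, was 2.48-fold lower in PC3 control, with a log2 ratio of −1.31 ± 0.06 (SE over 10 spots). Its partner UQCRC1, the other core protein, lay on the opposite side, at 14859 and 13666 units in LNCaP and 21676 and 23337 in PC3 (0.54). The 2 core proteins thus differed between the lines in opposite directions under each of the 5 scalings, from 0.10 to 1.05 for UQCRC1 and from −1.75 to −0.80 for UQCRC2. UQCRQ, a small subunit, read 45675 and 43553 units against 20412 and 20616, 2.24-fold lower.

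Complex IV had a median of −0.12, which was 0.21 with quantile normalization and 0.39 with spike-in scaling. COX5A, with 2182 units in LNCaP and 967 in PC3 before treatment, was 2.26-fold lower and the only common subunit past 2-fold. COX6C (0.49) and COX6A1 (0.41) were the highest of the 11 common subunits, of which 8 were below 0 (4 of 11 with quantile normalization and 2 with spike-in scaling).

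In complex V, 10 of 14 genes were below 0 (6 with spike-in scaling). All 5 genes of the F1 head, the catalytic part with its central stalk, were below 0, with a median of −0.97. ATP5D, a subunit of the central stalk, read 25013 and 23400 units in LNCaP against 9679 and 10232 in PC3 (2.58-fold lower), and ATP5C1, the gamma subunit of the same stalk, 7217 and 6813 units against 3235 and 3718 (2.23-fold). ATP5A1 lay just short of the threshold at 1.96-fold, while ATP5B, the beta subunit (−0.48), and ATP5E (−0.13) were closer. Of the 4 genes of the peripheral stalk, which holds the head still, 3 were above 0 (1 with the 50th percentile). ATP5O led them, at 19651 and 20387 units in LNCaP and 29390 and 31919 in PC3 (0.58), while ATP5H was at 0.04 and ATP5F1 at −0.62. In the c ring, which turns with the flow of protons, ATP5G2 read 39745 and 41683 units against 15884 and 15489 (2.5-fold lower), and ATP5G1 was at −0.19. ATP5I, an accessory subunit of the membrane part, read 27712 and 28043 units against 10666 and 12500 (2.6-fold lower), whereas the other membrane accessory subunits, ATP5J2 (−0.27) and ATP5L (0.06), were closer to 0. ATP5S, counted apart from the enzyme, read 2199 and 2223 units against 1077 and 1171, just past the threshold at 2.04-fold, and a second probe for it gave −1.58. The number of F1 head genes below 0 was 4 of 5 with quantile normalization and 3 of 5 with spike-in scaling, and the median minus that of all genes lay between −0.92 and −0.62 over the 5 scalings. No test of the difference between the parts of the enzyme was made.

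**Figure D5:**
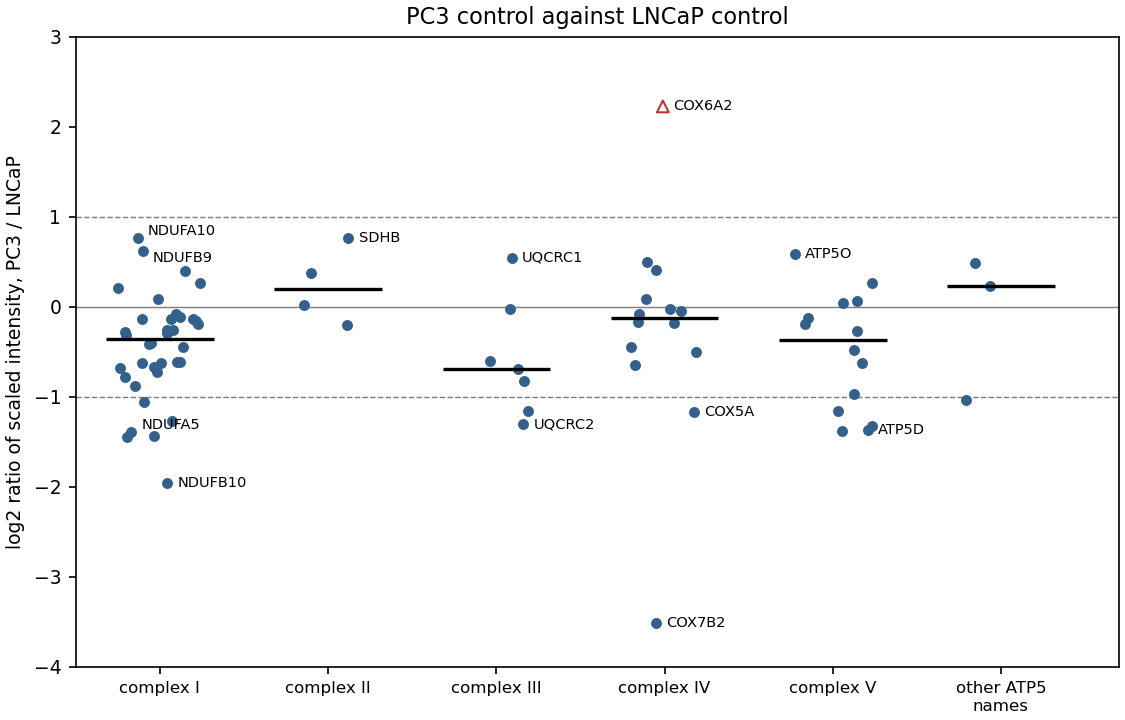
Log2 ratio of scaled intensity, PC3 control over LNCaP control, for 78 respiratory chain genes by complex, from 1 array per line. Points are genes, black bars are medians, dashed lines mark 2-fold and the open triangle is a bound. Most points of complexes I, III and V lie below 0, NDUFB10 (−1.96) and COX7B2 (−3.51) are the lowest of their complexes, and SDHB (0.77) is the highest of the points that are not bounds.

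Complex IV has subunit isoforms restricted to particular tissues, each beside a common counterpart. Of 6 such isoforms, COX4I2 (lung), COX7A1 (heart and muscle) and COX8C (testis) were not well above background on any array, while their common counterparts were well above background on all 4. COX4I1 read 25686 and 25181 units in LNCaP and 18901 and 20630 in PC3, and COX8A 64920 and 64624 units and then 61614 and 66531. COX6B1, whose testis form is described last, read 32886 and 32116 units and then 20939 and 22036. None of these 3 common forms was past 1.5-fold with ATO in either line. COX6A2, the heart and muscle form, read 140.5 units in PC3 control alone, and 7.70, 12.9 and 13.6 units on the LNCaP control and both ATO arrays, where it was not well above background. It was at least 4.68-fold higher in PC3 control than in LNCaP control and at least 2.72-fold lower in PC3 ATO than in PC3 control. Its single PC3 control spot lay in a bright local background (142 against an array median of 89), and the part of that background was not tested.

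COX7B2, a testis-enriched relative of COX7B, gave the widest gap between the lines. It read 875 and 886 units in LNCaP against 76.7 and 105 in PC3, 11.4-fold lower in PC3 control (log2 ratio −3.51). The ratio ran from −3.95 to −2.73 under the alternatives. After ATO the LNCaP pair differed by 0.02 log2 units and the PC3 pair by 0.45, where the ATO spot had a bright local background (164). Its common counterpart COX7B read 21223 and 20867 units in the control arrays, a log2 ratio of −0.02. The probes for the 2 genes share no run longer than 7 bases, and the middle 30 bases of each are shown to identify what was measured. They come from hg18 chrX:77044860-77044919, plus strand, and chr4:46431681-46431740, minus strand.
COX7B: tgtattagctagtggagccactttctgtat
COX7B2: agtaaccatcacagttgctgtaatgacaga

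COX6B2, the testis form of COX6B1, appeared well above background on all 4 arrays, at 4499, 4015, 4370 and 3950 units, but its 2 probes gave different readings. The second probe read 10.0, 11.4, 16.2 and 78.6 units in the same order and was well above background only in PC3 ATO. The 81 chosen probes were screened against probes of other gene names for a shared run of 20 bases on the same strand. Only the bright COX6B2 probe had such a run, shared with probes of 3 other gene names. Runs on the reverse strand were not searched.

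Around the subunits, other genes of the pathway were read from 8 lists: assembly factors of each complex, carriers and subunits outside the naming rule, regulators, and the tricarboxylic acid cycle. In LNCaP 2 of 69 measured (2.9%) were past 1.5-fold, against 4.75% of all genes, and both were lower. COX19, a copper-handling factor of complex IV assembly, read 145 and 78.2 units. ESRRA, a nuclear receptor that acts with PGC-1 coactivators, read 2472 and 1463 units (log2 ratio −0.76). In PC3 5 of 67 (7.46%) were past 1.5-fold, against 18.5% of all genes. All 5 were lower, and 4 of them were among the 14 regulators (28.6%), against 10.3% of all genes that were 1.5-fold lower. TFAM, which packages mitochondrial DNA and activates its transcription, read 2395 and 2304 units in the LNCaP pair and 2479 and 1374 in the PC3 pair, with log2 ratios of −0.06 and −0.85. ESRRA read 2795 and 1695 units in PC3 (−0.72), PPARGC1B 312 and 119 (−1.39) and PPRC1 1759 and 1135 (−0.63). The spots of COX19, ESRRA and PPARGC1B each had a bright local background on 1 of the 4 arrays, and its part was not tested.

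The median of the 14 regulators in PC3 was −0.26, with 11 below 0, against a median of −0.01 and 50.7% below 0 for all genes. The number of regulators past 1.5-fold was 2 with the 50th percentile (TFAM and PPARGC1B) and 3 with normexp (without PPRC1). NRF1, GABPA and YY1, factors that bind promoters of respiratory chain genes, had log2 ratios in PC3 of −0.22, 0.34 and −0.13, none past 1.5-fold, and PPARGC1A was not well above background on any array. The fifth gene was NDUFAF4, an assembly factor of complex I, at 1957 and 1235 units, also with a bright local background on 1 array. The genes of the tricarboxylic acid cycle had a median of −0.08 in PC3, with 0 of 18 past 1.5-fold.

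Genes for the mitochondrial ribosome, which translates the mitochondrially encoded subunits, were read the same way. In LNCaP 0 of 76 were past 1.5-fold with a median of −0.04, and in PC3 0 of 76 with a median of −0.13 and 55 below 0 (23 with the 50th percentile). In the comparison of the control arrays 3 were at least 2-fold higher and 11 lower, against 20.6% and 19% of all genes, with a median of −0.34. With spike-in scaling these became 9 higher and 4 lower, with a median of 0.17. The respiratory chain genes had medians of −0.02, 0.07 and −0.27 in the same 3 comparisons, and the difference between the families was not tested.

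Between the control arrays 7 of 10 carriers and subunits outside the naming rule were at least 2-fold lower in PC3, against 19% of all genes. The count was 7 with the 50th percentile and with normexp, 5 with quantile normalization and 2 with spike-in scaling (NDUFA4L2 and ETFA). ETFA and ETFB, which pass electrons from fatty acid oxidation, read 12076 and 16909 units in LNCaP control and 2960 and 6752 in PC3 control, and ETFDH, their partner in the membrane, 2245 and 961. NDUFA4L2, a relative of NDUFA4, was measured in LNCaP at 1179.7 units before treatment but in neither PC3 array, a log2 ratio of −4.61 as a bound. NDUFAB1, USMG5 and ATPIF1 were the other 3, with log2 ratios from −1.20 to −1.04. CYC1, the cytochrome subunit of complex III, was at 0.47 and CYCS, cytochrome c, at −0.07.

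The mitochondrial genome itself was touched by 5 probes. One for ND5, a proton-pumping subunit of complex I, read 9807 and 9981 units in the LNCaP pair and 16938 and 20174 in the PC3 pair, so that the PC3 control value was 0.79 log2 units above the LNCaP one. The other 4 probes gave 0.46, 0.15, −0.21 and −0.83 for the same comparison, so the 5 probes had no common direction. A probe similar to ND2 gave 0.04 in LNCaP and 0.15 in PC3 with ATO. Over the 5 probes the ATO ratios ran from −0.11 to 0.13 in LNCaP and from −0.17 to 0.25 in PC3.

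Promoter sequence was examined because NRF1, GABP and YY1 sites are known features of these genes. RefSeq promoters of build GRCh38.p14, from 250 bases before to 50 after each listed start, were matched to 67 of the 83 names. On either strand, the NRF1 motif GCATGCGC was found in 14 of 67 (20.9%), compared with 4.89% of 15842 protein-coding genes. The GABP motif CCGGAAG was found in 20 (29.9%), compared with 16.5%, and the YY1 motif AAGATGGC in 12 (17.9%), compared with 4.66%. At least 1 of the 3 was present in 53.7% of the matched names and in 23.4% of protein-coding genes. The GABP and YY1 motifs can overlap, since CCGGAAG ends and AAGATGGC begins with AAG, and whether their matches did so was not examined. GCATGCGC read on both strands forms the palindrome GCGCATGCGC, in which both matches overlap. A match is a description of the letters and not of binding.

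Of 13 measured genes with the NRF1 motif, 5 (ATP5C1, ATP5G2, ATP5I, NDUFA5 and NDUFB4) were among those 2-fold lower in PC3 control than in LNCaP control (38.5%), compared with 8 of 52 without it (15.4%) and 19% of all genes. The other 2 motifs went the opposite way, with 2 of 19 genes that hold the GABP motif (10.5%) against 11 of 46 without it (23.9%), and 1 of 12 with the YY1 motif (8.33%) against 12 of 53 (22.6%). None of these differences was tested. With spike-in scaling NDUFB10 and COX7B2 alone stayed 2-fold lower, so all 5 genes with the NRF1 motif were then under 2-fold. NDUFB4 was under it with quantile normalization too. With ATO the medians of the 13 and the 52 in PC3 were 0.05 and 0.07. The stretches below are shown as examples of the NRF1 motif in genes that were lower in PC3 control (NDUFB4, ATP5C1, NDUFA5). SDHD is shown as a gene with the motif that was not (log2 ratio 0.02). Only NRF1 matches are in capitals, and the SDHD stretch also holds the GABP motif on the reverse strand, in small letters. They lie at GRCh38 chr3:120596131-120596230, chr10:7788077-7788176 and chr11:112086717-112086816 on the plus strand and chr7:123557923-123558022 on the minus strand. The NDUFA5 match belongs to 1 of its 3 listed starts.
NDUFB4: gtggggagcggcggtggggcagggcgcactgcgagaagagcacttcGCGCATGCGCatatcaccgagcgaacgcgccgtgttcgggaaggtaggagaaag
ATP5C1: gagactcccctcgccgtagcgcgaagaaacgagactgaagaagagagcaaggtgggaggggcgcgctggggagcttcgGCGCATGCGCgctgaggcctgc
NDUFA5: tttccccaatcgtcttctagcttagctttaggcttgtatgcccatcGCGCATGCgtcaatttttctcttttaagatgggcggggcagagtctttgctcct
SDHD: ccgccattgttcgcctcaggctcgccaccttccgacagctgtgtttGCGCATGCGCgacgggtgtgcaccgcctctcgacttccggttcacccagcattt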

How the data were processed

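Total RNA of each group was hybridised to a 1-colour Agilent array, and the 4 arrays shared 1 slide and 1 scan, so position on the slide and group cannot be told apart. The deposited intensity of each spot is linear and not normalized. Per the file headers, Feature Extraction 9.5.3.1 subtracted a spatially fitted background. The deposited value table holds a ratio of each processed intensity to the 75th percentile of its array, and it served as an alternative. Depth does not apply to arrays, and precision is limited by the single array per group.

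Each array carried 43118 gene spots. Spots with an outlier call were dropped, spots of 1 probe were averaged as log2 processed signal, and the 75th percentile of the array was subtracted. A probe counted as well above background when more than 50% of its spots were so called. For a bound, the dim array was set to the higher of its own value and the lowest value called well above background there. Calls were 1.5-fold for ATO and 2-fold between lines. limma 3.58.1 (R 4.3.3) was run with line as a block, two-sided, with Benjamini-Hochberg adjustment over all genes with both control or both ATO probes well above background, and both rules were tested on simulated data. Python 3.11.15 with pandas 2.3.3 was used otherwise. Probe positions are those of the array design (hg18).

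The genes and lists were chosen with earlier results of these data known. Genes were named if past the fold, among the 5 highest or lowest ratios, in complex II, or isoforms with their counterparts. The alternatives were 4 other scalings or background corrections, outlier calls ignored, the median over probes, 2 other filters on dim probes, no spots in bright local backgrounds, the deposited table, and, added after seeing the data, the genes without COX7B, COX6A2 and COX6B2. Some genes and 1 probe sequence are not reported here.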

Additional observations from a re-analysis of the deposited data

Results flagged for a closer look

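NDUFA5 was the only gene of the 81 that differed by more than 0.32 log2 units in opposite directions in the 2 lines, with a log2 ratio of −0.42 in LNCaP and 0.88 in PC3. Each value is the difference of 2 single spots, and the difference between the lines was not tested. A local background above the usual level was present at this spot on the PC3 ATO array alone, and its part in the value was not tested.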

How the results depend on the processing

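With 1 array per group no replicate could be left out and replicate numbers pair nothing, so the pairing of arrays rests on the cell line, which is the block of the limma fit. In LNCaP the count of genes past 1.5-fold, 1 as reported, was 2 with normexp, 3 with outlier calls ignored, 4 with no filter on dim probes, 3 at a threshold of 0.32 log2 units, and 0 with genes well above background on both arrays or without COX7B, COX6A2 and COX6B2. The LNCaP median became 0.12 with spike-in scaling. In PC3 the count of 2 was 4 with the 50th percentile and at 0.32 log2 units, 1 with both arrays above background, without the 3 genes named or at 2-fold, and 0 without bright local backgrounds, and the median was 0.26 with the 50th percentile. Between the controls the count of 16 was 31 with the 50th percentile, 9 with spike-in scaling and without bright local backgrounds (of 50 genes left), 34 at 1.5-fold and 2 at 4-fold, and the median was −0.72 with the 50th percentile, −0.10 with quantile normalization and 0.23 with spike-in scaling. For limma the count over all genes was 5 under 50th percentile scaling and 2 under spike-in scaling, with no respiratory chain gene among them. The median of all genes moved to 0.19 in PC3 and −0.49 between the controls with the 50th percentile, and to 0.14 in LNCaP and 0.38 between the controls with spike-in scaling. With no filter on dim probes 42.9% of all genes passed 1.5-fold in LNCaP, since values near background were included. NDUFA5 in PC3, and COX7B2 and NDUFB10 between the controls, stayed past their fold under each alternative that kept the spot. The other 13 genes lower in PC3 control were under 2-fold with spike-in scaling, and ATP5S, NDUFB4, NDUFC1 and UQCRQ also with quantile normalization. The causes were not tested.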
